A study of Homo sapiens with 12 samples.

Results

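Nucleostemin (GNL3), its relatives GNL3L and GNL2, and the nucleolar core proteins NPM1, NCL, FBL, DKC1, NOP56, NOP58 and NOLC1 were followed by gene name. They make up 10 of the 60669 genes in the count table, and were chosen with earlier results of these data known. All 10 were paired with a single Ensembl ID and all 10 passed the filter on low counts. The study asked how quinacrine (QC), an antimalarial drug, changes the transcriptome of ovarian cancer cells that are sensitive or resistant to chemotherapy. RNA-seq of polyadenylated RNA was made from 3 isogenic pairs of established lines, the sensitive OV2008 with the resistant C13, SK-OV-3 with SK-OV-3-TR, and HeyA8 with HeyA8-MDR. Cells received QC at 8 µM, or vehicle alone, during 6 h, and 12 libraries were made, 1 per line and treatment. A line had no replicates of its own, so the lines served as replicates, and each resistant partner is a single line. The lines of a pair are isogenic, yet the tests over 6 lines counted them as separate replicates.

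The nucleolus is where RNA polymerase I transcribes ribosomal RNA and where that RNA is modified, cut and packed into ribosomal subunits. Box C/D particles, built on FBL, NOP56, NOP58 and SNU13, carry out 2′-O-methylation of ribosomal RNA, and box H/ACA particles, built on DKC1, NHP2, NOP10 and GAR1, convert uridine to pseudouridine. GNL3 is a GTP-binding protein that shuttles between nucleolus and nucleoplasm and is abundant in stem and cancer cells, while NPM1 and NCL are among the most abundant nucleolar proteins and act as histone and ribosome assembly factors.

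Promoters of the members are shown as a description, and the canonical E-box CACGTG, the site read by MYC and related factors, is the motif searched. Whether the motif relates to the QC changes described below was not tested. The stretches run from 100 bases before to 30 bases after the RefSeq start (GRCh38.p14), 5′ to 3′ on the strand of the gene, and capitals mark the motif.
GNL3, downstream start (chr3:52685932-52686061, plus strand): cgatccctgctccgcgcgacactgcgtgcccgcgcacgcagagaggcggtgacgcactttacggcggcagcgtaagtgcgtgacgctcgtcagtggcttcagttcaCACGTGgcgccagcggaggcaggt
GNL3L (chrX:54530119-54530248, plus strand): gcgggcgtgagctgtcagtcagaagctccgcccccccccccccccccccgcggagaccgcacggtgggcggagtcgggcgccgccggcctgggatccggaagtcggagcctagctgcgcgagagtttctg
GNL2 (chr1:37595908-37596037, minus strand): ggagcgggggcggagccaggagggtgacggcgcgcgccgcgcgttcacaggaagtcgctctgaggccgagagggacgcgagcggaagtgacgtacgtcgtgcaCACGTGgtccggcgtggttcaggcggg
FBL (chr19:39846350-39846479, minus strand): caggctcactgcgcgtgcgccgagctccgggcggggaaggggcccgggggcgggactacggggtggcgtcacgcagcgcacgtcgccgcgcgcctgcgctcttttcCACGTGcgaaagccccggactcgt
NOP56 (chr20:2652532-2652661, plus strand): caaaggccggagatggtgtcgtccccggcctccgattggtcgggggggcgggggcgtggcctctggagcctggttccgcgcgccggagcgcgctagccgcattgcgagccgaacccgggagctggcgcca
The motif reads the same on both strands. RefSeq promoter windows (250 bases before to 50 after the start) were found for 8 of the members, none being listed for NOP58 and NOLC1, and 3 of these 8 genes held CACGTG. It began at position +4 in GNL2 and at +7 in both FBL and the downstream GNL3 start. Of all 27305 genes with a window, 8.77% held it, and among the 16447 windows with a GC content over 60% the share was 9.9%. The windows of GNL3L, NPM1, NCL, DKC1 and NOP56 and of the upstream GNL3 start did not hold these letters, and of these GNL3L and NOP56 are printed because they had the lowest p over the 6 lines.

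Reads counted on genes totalled 17782556 to 30585059 per library, with a median of 22289428, and the lowest count of any member in any library was 657. All libraries held KRT8 and KRT18, epithelial keratins, at 161 CPM (counts scaled to library size) or more, whereas EPCAM and CDH1 were at most 2.92 and 0.222 CPM in the HeyA8 family, where the endothelial marker CDH5 reached 176 CPM. The leukocyte and fibroblast markers PTPRC, CD3E and DCN were under 1 CPM in all libraries. The HeyA8 QC library stood apart. Of the genes at least 8-fold apart between the HeyA8 and HeyA8-MDR vehicle libraries, 285 were higher in HeyA8-MDR and 218 lower. In the HeyA8 QC library the 285 lay at a median of 39.6% of the way from HeyA8 to HeyA8-MDR, and the 218 at 52.7%. These positions, and those of the members below, were computed on CPM, not on log2 values. The medians for the other QC libraries were between 0% and 31.2%. Fitted QC effects over the 6 lines are therefore also given without HeyA8, and further values without it stand beside the comparisons of the groups.

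Levels were compared between genes as TMM-normalized CPM per kb of the canonical transcript. NPM1 was the most abundant member in all 12 libraries and GNL3L the least abundant in all 12. Over the 6 vehicle libraries, NPM1 had a median level of 1414 CPM per kb (range 652.9 to 2134), followed by NCL with 234 (155.3 to 498.5) and FBL with 164 (65.96 to 262.9). The ranges of neighbouring genes in this order overlapped from NCL through NOP58, so the ranks of NOP56 (median 64.37), NOLC1 (64.2), GNL3 (55.17), DKC1 (43.25), GNL2 (42.02) and NOP58 (39.12) were not separated by the spread between lines. GNL3L had a median of 10.02 CPM per kb (4.292 to 20.33), below the range of every other member. Its canonical transcript is 8684 bases long against 1933 for GNL3, and a shorter isoform would give a higher value per kb.

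**Figure D1:**
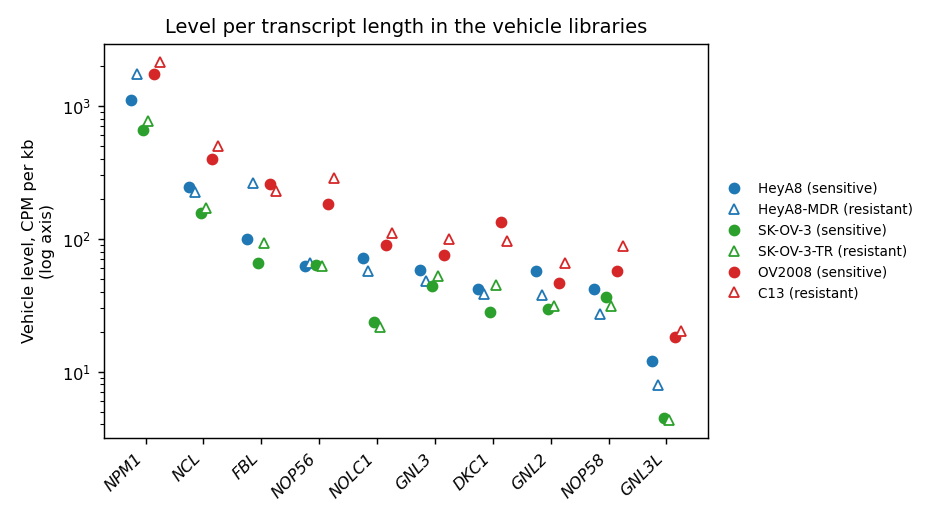
Level of each member in the 6 vehicle libraries, in TMM-normalized CPM per kb of transcript (log axis), with 1 point per line, circles for sensitive and triangles for resistant lines. NPM1 lies at 652.9 to 2134 and GNL3L at 4.292 to 20.33, with the other members between.

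NPM1 and NCL together held 63.4% to 81.1% of the counts of the 10 genes. The members' summed share of all counts was lowest in the SK-OV-3 QC library, at 0.202%, and highest in the C13 vehicle library, at 0.696%. Among vehicle libraries, C13 had the highest level of 8 members, OV2008 that of DKC1 and HeyA8-MDR that of FBL. SK-OV-3 had the lowest level of 6 members and SK-OV-3-TR that of a further 2. The highest line exceeded the lowest by 2.21-fold for GNL2 and 2.27-fold for GNL3, the least variable members, and by 5.11-fold for NOLC1, the most variable. These differences between cell line families rest on 1 vehicle library per line and were not tested.

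QC changes were first compared line by line with TMM scaling, and the counts with each library scaled to RPLP0, the reference gene of the study's qPCR, are given beside them. RPLP0 scaling also moved the median fitted change of all genes, to 0.18 over the 6 lines, 0.29 in sensitive and 0.081 in resistant lines. Its counts of lower members are therefore to be read against that shift. In C13, all 10 members were lower with QC, 6 when scaled to RPLP0, with a median log2 change of -0.59 (range -0.70 to -0.23) where the median of all genes was 0. In its partner OV2008, 6 were lower and 4 higher (median -0.20), and 2 were lower when scaled to RPLP0. SK-OV-3 had 9 lower and 1 higher (median -0.18), with 2 lower when scaled to RPLP0, whereas its partner SK-OV-3-TR had 2 lower and 8 higher (median 0.22). HeyA8 had 7 lower and 3 higher (median -0.20), and HeyA8-MDR had 5 in each direction (median 0.06). Scaled to RPLP0, the numbers lower were 2 in SK-OV-3-TR, 6 in HeyA8 and 5 in HeyA8-MDR. The resistant lines therefore held both the lowest and the highest median change.

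The size of the changes was counted against all 18720 genes tested. In C13, 8 members were at least 1.25-fold lower, where 25.7% of all genes were, and 0 were at least 1.25-fold higher, where 27.7% were. In SK-OV-3-TR, 0 members were that much lower and 3 higher, against 26.3% and 22.3% of all genes. In HeyA8, 4 were lower and 2 higher, against 28.3% and 29.8%, and in HeyA8-MDR 2 were lower and 3 higher, against 30.9% and 27.5%. In SK-OV-3, 2 were lower and 0 higher, against 18.7% and 17.5%, and in OV2008 3 were lower and 1 higher, against 25.6% and 29.2%. With 1 library per line and treatment these counts have no replicate check, and outside C13 the share of members past 1.25-fold in a direction was between 0 and 4 of 10.

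**Figure D2:**
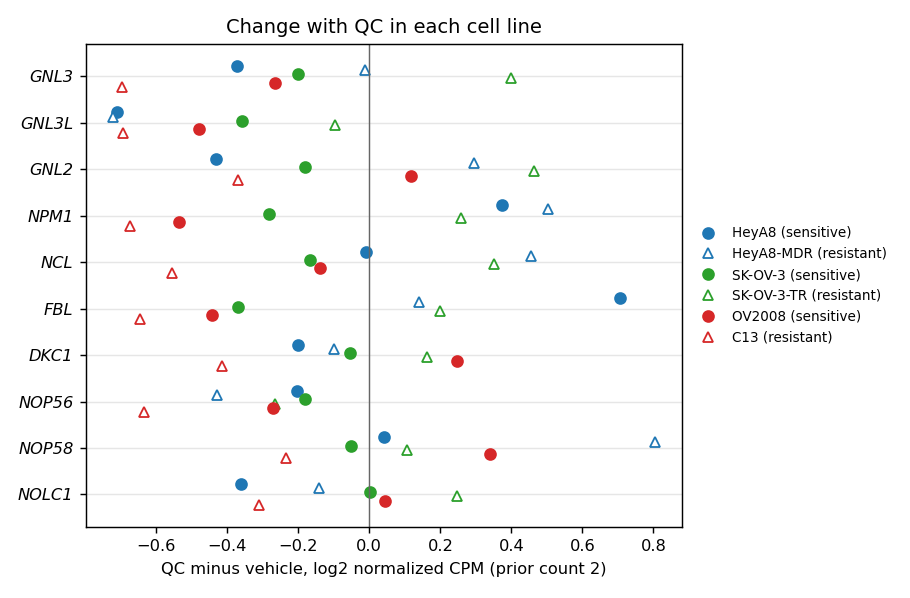
Change with QC of each member in each line, as the log2 ratio of normalized CPM in the QC library over the vehicle library (prior count 2), with circles for sensitive and triangles for resistant lines and a colour for each isogenic family. GNL3L and NOP56 lie below 0 in 6 of 6 lines (6 and 4 when scaled to RPLP0), and C13 lies below 0 for all 10 members (6 when scaled to RPLP0).

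GNL3, or nucleostemin (ENSG00000163938.17, chr3:52685920-52694497), was measured in the vehicle and QC libraries at 144.8 and 120.4 CPM in OV2008, 85.17 and 74.06 in SK-OV-3, and 111.6 and 86.3 in HeyA8. Among resistant lines it was at 193.3 and 119.3 CPM in C13, 101.7 and 134.2 in SK-OV-3-TR, and 92.77 and 91.99 in HeyA8-MDR. It was thus lower with QC in 5 of 6 lines, or in 3 when scaled to RPLP0, and higher in SK-OV-3-TR, and the vehicle and QC levels overlapped widely. The ratios of QC to vehicle were 0.832 in OV2008, 0.87 in SK-OV-3 and 0.773 in HeyA8, against 0.618 in C13, 1.32 in SK-OV-3-TR and 0.992 in HeyA8-MDR. Over 6 lines the fitted log2 fold change of GNL3 was -0.19 (SE 0.139, edgeR quasi-likelihood unadjusted p = 0.191, adjusted p = 0.533), which did not pass the threshold. An exact two-sided sign-flip test of its 6 changes gave p = 0.281, where the smallest p it can give is 0.0312. Without SK-OV-3-TR the fitted change was -0.31 (edgeR unadjusted p = 0.0371), so that 1 line decided whether GNL3 passed an unadjusted 0.05. Without C13 it was -0.10 (edgeR unadjusted p = 0.477), and without HeyA8 -0.16 (unadjusted p = 0.333). Scaled to RPLP0, the fitted change of GNL3 was -0.0072 (edgeR unadjusted p = 0.957). In the HeyA8 QC library GNL3 lay 134% of the way from the HeyA8 to the HeyA8-MDR vehicle level, and the part of this in its HeyA8 value was not tested.

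GNL3L (ENSG00000130119.17, chrX:54530219-54645854), a paralogue of nucleostemin, also a nucleolar GTP-binding protein, had the largest fitted change of the members over the 6 lines under TMM, whereas NOP58 had it, as an increase, when scaled to RPLP0. Its level went from 157.5 CPM with vehicle to 112.9 with QC in OV2008, from 38.94 to 30.33 in SK-OV-3, and from 105.1 to 64.22 in HeyA8. Among resistant lines it went from 176.6 to 109.2 CPM in C13, from 37.28 to 34.83 in SK-OV-3-TR, and from 68.98 to 41.82 in HeyA8-MDR. Every line was lower with QC, also when scaled to RPLP0, by the least under TMM in SK-OV-3-TR, while levels differed more between lines than between treatments. The fitted log2 fold change of GNL3L was -0.51 (SE 0.119, 0.701-fold, edgeR unadjusted p = 9.9e-04), but its adjusted p of 0.146 over all genes did not pass. Leaving out any 1 line gave -0.60 to -0.47 with unadjusted p from 4.56e-04 to 0.00392, and without HeyA8 it was -0.47. Scaled to RPLP0, GNL3L was at -0.33 (edgeR unadjusted p = 0.0479), where the median of all genes moved by 0.18. In the HeyA8 QC library GNL3L lay 113% of the way to the HeyA8-MDR vehicle level, which was itself the lower of the 2 vehicle levels. The part of this in its HeyA8 value was not tested.

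GNL2 (ENSG00000134697.13, chr1:37566816-37595937), the nucleolar GTPase that acts in assembly of the large ribosomal subunit, was lower with QC in 3 lines and higher in 3. Its log2 changes ran from -0.43 in HeyA8 to 0.46 in SK-OV-3-TR. The fitted change of GNL2 was -0.02 (SE 0.138, edgeR unadjusted p = 0.894) and 0.06 without HeyA8, where its QC library lay 76.2% of the way to the HeyA8-MDR level. The related GTPases were not uniform in this respect, since the GNL3L change was more negative than that of GNL3 in 5 of 6 lines, and GNL2 was more positive than GNL3 in 5 of 6.

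In the box C/D core, NOP56 (ENSG00000101361.17, chr20:2652632-2658393), a scaffold protein of the particle, was lower with QC in every line under TMM and in 4 of 6 when scaled to RPLP0. Its level with vehicle and QC was 347.5 and 287.7 CPM in OV2008, 121.5 and 107.2 in SK-OV-3, and 118.4 and 102.8 in HeyA8. Among resistant lines it was 548.2 and 353.3 CPM in C13, 119 and 99.09 in SK-OV-3-TR, and 124.8 and 92.59 in HeyA8-MDR. Vehicle levels were between 118.4 and 124.8 CPM in the HeyA8 and SK-OV-3 families and higher in OV2008 and C13, and the QC library was the lower of each pair. The fitted log2 fold change of NOP56 was -0.33 (SE 0.11, 0.795-fold, edgeR unadjusted p = 0.0104), with an adjusted p of 0.198 that did not pass. Leaving out any 1 line gave -0.37 to -0.28, with unadjusted p from 0.0135 to 0.0331, and without HeyA8 it was -0.36. Scaled to RPLP0, NOP56 was at -0.15 and did not pass (edgeR unadjusted p = 0.275).

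NOP58 (ENSG00000055044.11, chr2:202265763-202303661), the other scaffold of the box C/D particle, was the 1 member with a positive fitted change under TMM. Its level with vehicle and QC was 114 and 144.3 CPM in OV2008, 71.99 and 69.43 in SK-OV-3, and 84.02 and 86.44 in HeyA8. Among resistant lines it was 175.7 and 149.3 CPM in C13, 62.09 and 66.85 in SK-OV-3-TR, and 53.97 and 94.36 in HeyA8-MDR. The direction was mixed, 4 lines being higher and 2 lower (0 lower when scaled to RPLP0), with the largest difference in HeyA8-MDR. The fitted log2 fold change of NOP58 was 0.17 (SE 0.138, edgeR unadjusted p = 0.253), and 0.35 (unadjusted p = 0.0301) when scaled to RPLP0. Without HeyA8-MDR it was 0.026 (edgeR unadjusted p = 0.839), and without HeyA8 0.19. Of its exonic bases, 10.26% are shared with other genes, and 6.65% of those of NOP56 are, and the counting strand was not stated.

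The ratio of NOP56 to NOP58 within a library does not depend on how libraries are scaled. This pair was chosen after its values were seen, so its values are given with no test. The log2 ratio was lower with QC in 6 of 6 lines, with changes of -0.61 in OV2008, -0.40 in C13, -0.13 in SK-OV-3, -0.37 in SK-OV-3-TR, -0.24 in HeyA8 and -1.24 in HeyA8-MDR. The ratio of NOP56 to FBL was lower in 3 of 6 lines, with changes from -0.91 to 0.19, and that of FBL to NOP58 in 4 of 6, from -0.78 to 0.66. SNU13, the RNA-binding subunit of the same particle, had a fitted log2 change of -0.01 (edgeR unadjusted p = 0.945).

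**Figure D3:**
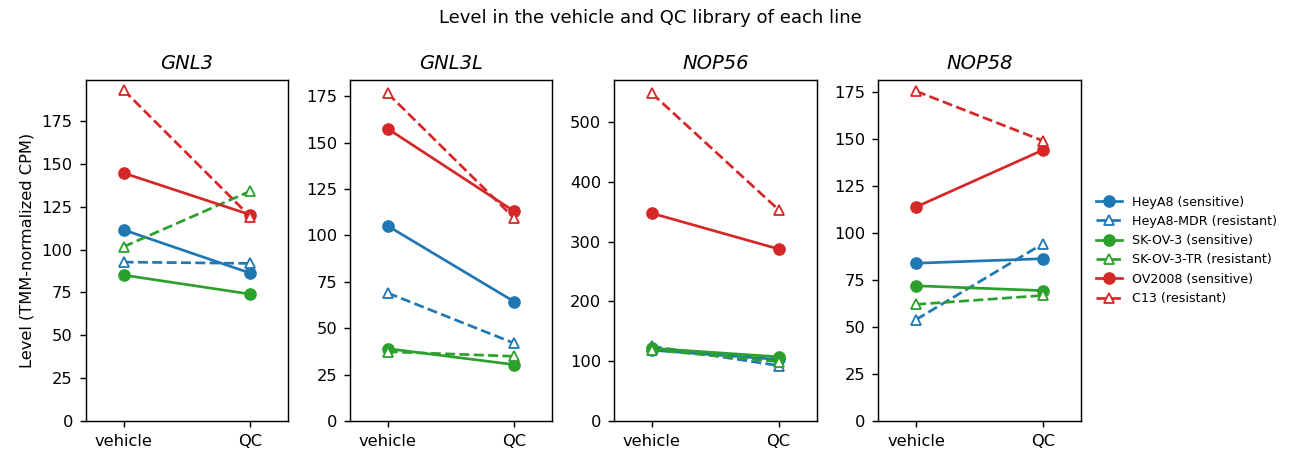
TMM-normalized CPM of GNL3, GNL3L, NOP56 and NOP58 in the vehicle and QC library of each line, joined by a line, solid for sensitive and dashed for resistant lines, with each panel starting at 0. GNL3L and NOP56 are lower with QC in 6 of 6 lines, GNL3 in 5 and NOP58 in 2, against 6, 4, 3 and 0 when scaled to RPLP0.

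FBL (ENSG00000105202.9, chr19:39834458-39846379), the methyltransferase of the box C/D particle, went from 112.6 to 183.6 CPM in HeyA8, the largest increase of any member in a sensitive line as a ratio. It was lower with QC in SK-OV-3 (74.21 to 57.44), OV2008 (288.8 to 212.4) and C13 (256.3 to 163.9), and higher in HeyA8-MDR (295.8 to 326.2) and SK-OV-3-TR (103.6 to 118.9). In the HeyA8 QC library FBL lay 38.8% of the way to the HeyA8-MDR vehicle level, close to the median of 39.6% for the genes that separate those lines. The part of this in the HeyA8 value was not tested. The fitted change of FBL over 6 lines was -0.07 (SE 0.167, edgeR unadjusted p = 0.682) and -0.22 (unadjusted p = 0.163) without HeyA8.

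NPM1 (ENSG00000181163.13, chr5:171387116-171410900), a histone chaperone and ribosome export factor, was lower with QC in OV2008 (2285 to 1575 CPM), C13 (2817 to 1767) and SK-OV-3 (861.8 to 708.4). It was higher in HeyA8 (1450 to 1880), HeyA8-MDR (2282 to 3237) and SK-OV-3-TR (1007 to 1205). The directions split evenly, and the fitted change of NPM1 was -0.06 (SE 0.171, edgeR unadjusted p = 0.737) and -0.15 without HeyA8, where it lay 51.6% of the way to the HeyA8-MDR level. The 49 NPM1 pseudogenes in the table held 0.443% as many counts as NPM1, so reads assigned to them were few, although reads shared between copies could not be told apart. NCL (ENSG00000115053.16, chr2:231453531-231464484), an RNA-binding protein of the granular and fibrillar nucleolus, had log2 changes from -0.55 in C13 to 0.46 in HeyA8-MDR and a fitted change of -0.01 (SE 0.144, edgeR unadjusted p = 0.944), which was -0.011 without HeyA8.

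DKC1 (ENSG00000130826.18, chrX:154762864-154777689), the pseudouridine synthase of the box H/ACA particle, was lower in 4 lines and higher in 2, from -0.42 in C13 to 0.25 in OV2008, with a fitted log2 change of -0.06 (SE 0.118, edgeR unadjusted p = 0.62), or -0.032 without HeyA8. NOLC1 (ENSG00000166197.17, chr10:102152389-102163870), a phosphoprotein that chaperones both kinds of particle, was lower in 3 and higher in 3, from -0.36 in HeyA8 to 0.25 in SK-OV-3-TR, with a fitted change of -0.09 (SE 0.117, edgeR unadjusted p = 0.47), or -0.032 without HeyA8. In the HeyA8 QC library DKC1 lay 157% and NOLC1 115% of the way to the HeyA8-MDR vehicle level. There NCL lay at 7.76%, and NOP58 at -8.06% and NOP56 at -243%, which is away from HeyA8-MDR. Such positions can be large where the vehicle levels are close, as for DKC1 (103.5 CPM in HeyA8, 94.95 in HeyA8-MDR). Members also spread widely in C13, from -284% (FBL) to 353% (GNL3L) of the way to the OV2008 vehicle level. Whether the members as a set moved toward HeyA8-MDR was not tested. Coordinates are those of RefSeq on GRCh38.p14 and serve to locate the genes, since the sources name different builds for the alignment.

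Over the 6 lines, 2 of 10 members, GNL3L and NOP56, had an unadjusted p under 0.05 by edgeR's quasi-likelihood test, both lower, where 15.2% of all genes had one and 7.18% were lower. The median fitted log2 change was -0.06 over the members and 0.00010 over all genes, and 9 of 10 members were negative, or 3 of 10 when scaled to RPLP0. After Benjamini-Hochberg adjustment edgeR called 0 members and 0% of all genes, the smallest adjusted p of any gene being 0.123. DESeq2 called 2 members, GNL3L and NOP56, at an adjusted p under 0.05. They were among 518 genes called of the 18720 that passed the filter, and the smaller of the 2 adjusted p-values was 0.0062. The call after adjustment thus depended on the tool. GNL3L and NOP56 were also the 2 members lower in 6 of 6 lines under TMM, as were 4.6% of all genes, and 0 members were higher in 6 of 6, where 4.13% were.

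In the 3 sensitive lines, 1 member passed an unadjusted 0.05 by edgeR, where 6.59% of all genes did. This was GNL3L, with a fitted log2 change of -0.52 (SE 0.185, edgeR unadjusted p = 0.0164, adjusted p = 0.677), and without HeyA8 it was -0.42 and no longer passed (unadjusted p = 0.0969). In the 3 resistant lines 2 members passed, where 6.03% of all genes did, GNL3L at -0.51 (SE 0.186, edgeR unadjusted p = 0.0189) and NOP56 at -0.44 (SE 0.167, unadjusted p = 0.0216), each with an adjusted p of 0.816. Scaled to RPLP0, 0 members passed in either group by edgeR. In the edgeR fits both lost the threshold without C13, GNL3L at -0.42 (unadjusted p = 0.0854) and NOP56 at -0.36 (unadjusted p = 0.0802). They also lost it by edgeR without HeyA8-MDR, at -0.42 (unadjusted p = 0.0978) and -0.47 (unadjusted p = 0.0539). GNL3 was at -0.28 (SE 0.208, edgeR unadjusted p = 0.203) in sensitive and -0.10 (SE 0.21, unadjusted p = 0.635) in resistant lines. After adjustment, edgeR and DESeq2 each called 0 members in either group. Over all genes, edgeR called 0% in both groups and DESeq2 called 31 genes in sensitive and 0 in resistant lines.

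Without HeyA8, the fitted change in sensitive lines moved from -0.04 to -0.41 for FBL and from -0.15 to -0.41 for NPM1, and neither passed (edgeR unadjusted p = 0.13 and unadjusted p = 0.184). For DKC1 and NOLC1 it changed sign, from -0.0022 to 0.09 and from -0.11 to 0.02, and for GNL2 it moved from -0.17 to -0.034.

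The difference of the QC effect between resistant and sensitive lines was tested in the same fit. No member passed, 0 of 10 at an unadjusted 0.05 by edgeR and 0 by DESeq2, where 1.16% of all genes passed by edgeR. The differences ran from -0.22 (SE 0.236) for NOP56 to 0.29 (SE 0.286) for GNL2 on the log2 scale, and those of GNL3 and GNL3L were 0.18 (SE 0.295, edgeR unadjusted p = 0.559) and 0.01 (SE 0.262, unadjusted p = 0.965). After adjustment edgeR called 0% of all genes and DESeq2 called 1. Without HeyA8 the difference changed sign for FBL, from -0.06 to 0.31, for GNL3L, from 0.01 to -0.082, and for NOLC1, from 0.04 to -0.089. It moved from 0.18 to 0.45 for NPM1, from -0.12 to -0.21 for DKC1 and from 0.29 to 0.16 for GNL2, and no member passed by edgeR. A difference between the groups was thus not detected for these genes, nor was it shown to be absent.

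**Figure D4:**
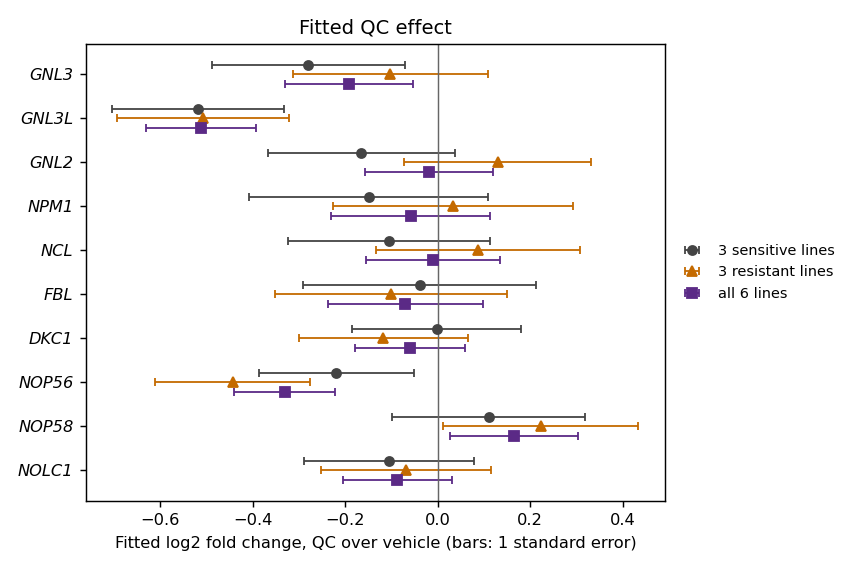
Fitted log2 fold change of QC over vehicle for each member in the 3 sensitive lines, the 3 resistant lines and all 6 lines, with bars of 1 standard error. GNL3L lies at -0.52, -0.51 and -0.51, and the bars of the sensitive and resistant lines overlap for each of the other members.

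Vehicle levels were compared between each resistant line and its sensitive partner. FBL was at 2.63 times the partner's level in HeyA8-MDR, 1.4 times in SK-OV-3-TR and 0.888 times in C13. NPM1 was the 1 member that was higher in the resistant line of all 3 families, at 1.57, 1.17 and 1.23 times in the same order. The share of all genes higher in all 3 is not given beside it, so this is not read as a trait of NPM1. GNL3 was at 0.831, 1.19 and 1.33 times and GNL3L at 0.657, 0.957 and 1.12 times. By edgeR with isogenic family as a term, 0 of 10 members passed an unadjusted 0.05, where 3.77% of the 16091 genes tested did. DESeq2 also called 0 members. RPLP0 scaling moved the median of all genes by -0.41 in this comparison and turned the fitted value of NPM1 to -0.023 and that of GNL3 to -0.28. The fitted log2 differences under TMM were 0.58 (SE 0.383, edgeR unadjusted p = 0.186) for FBL, 0.40 (SE 0.257, unadjusted p = 0.17) for NPM1 and 0.15 (SE 0.276, unadjusted p = 0.618) for GNL3. Without the HeyA8 family the edgeR values were 0.16 (unadjusted p = 0.705) for FBL, 0.27 for NPM1 and 0.34 for GNL3, and without the OV2008 family they were 0.97 (unadjusted p = 0.0696) for FBL and 0.031 for GNL3. Without the SK-OV-3 family GNL3 was at 0.092. After adjustment edgeR called 0% of all genes and DESeq2 called 41.

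Other genes of the same processes were taken from lists chosen by function, and their counts are to be read against the 15.2% of all genes that passed an unadjusted 0.05 over the 6 lines, 7.18% of all genes being lower. Of the 4 GTPases related to GNL3 that are no members, 2 passed an unadjusted 0.05 by edgeR over the 6 lines, both lower. These were NOA1, a mitochondrial GTPase, at -0.46 (SE 0.127, edgeR unadjusted p = 0.00353, adjusted p = 0.169), and MTG1, which acts in mitochondrial ribosome assembly, at -0.58 (unadjusted p = 0.00664, adjusted p = 0.182). GNL1 and LSG1 were at -0.22 and 0.01 and did not pass. In the box H/ACA core beside DKC1, 0 of 3 genes passed by edgeR, and GAR1 had the smallest p (log2 change -0.28, edgeR unadjusted p = 0.0614). In snoRNP assembly, 1 of 9 genes passed, RPAP3, a cofactor of the R2TP chaperone, at 0.54 (edgeR unadjusted p = 0.0294, adjusted p = 0.274).

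Among 19 other nucleolar proteins, 3 were lower and 1 was higher at an unadjusted 0.05 by edgeR, where 15.2% of all genes passed and 7.18% were lower. The lower genes were NOL6, a factor of the small subunit processome, at -0.46 (edgeR unadjusted p = 0.00879, adjusted p = 0.195), POLR1A, the catalytic subunit of RNA polymerase I, at -0.50 (unadjusted p = 0.0236), and NOP2, a ribosomal RNA methyltransferase, at -0.47 (unadjusted p = 0.0369). The higher gene was EBNA1BP2, at 0.30 (edgeR unadjusted p = 0.0491). The median of this list was -0.16 against 0.00010 over all genes. Among 11 partners of nucleostemin and sensors of nucleolar stress, 2 passed, a share near the 15.2% of all genes, and both were higher, CDKN1A, a cell cycle inhibitor induced by p53, at 0.91 (SE 0.273, edgeR unadjusted p = 0.00595, adjusted p = 0.18), and MDM2, the ubiquitin ligase that binds p53, at 0.74 (SE 0.252, unadjusted p = 0.0126, adjusted p = 0.21). The ribosomal proteins RPL5, RPL11 and RPL23, which bind MDM2, were at 0.03, 0.08 and 0.05. PARP1, an enzyme of the DNA damage response, was at -0.29 and did not pass. In these lists edgeR called 0 genes after adjustment.

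Introns of GNL3, NCL, NOP56, NOP58 and DKC1 hold snoRNA genes. Of 18 listed, 14 were paired with an ID and 1 passed the filter, SNORD19 in GNL3, with 2 to 15 counts per library (92 in all) beside 32148 for its host. Its fitted log2 change was -0.31 (SE 0.53, edgeR unadjusted p = 0.57), a precision that shows little in libraries of polyadenylated RNA.

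Levels of GNL3 over the 12 libraries were most like those of PAICS (Pearson r = 0.944 in log2 CPM) and ATIC (0.942), both enzymes of purine synthesis, followed by PABPN1 (0.935), BCL2L12 (0.929) and SART3 (0.923). Among the members, NCL (0.788), DKC1 (0.777), NOP56 (0.774), GNL2 (0.766) and GNL3L (0.722) were more like GNL3 than NPM1 (0.47) and FBL (0.45) were. The 12 libraries share 6 lines, so these values mostly describe differences between lines and are given as a description. Over the 45 pairs of members, the correlation of QC changes across the 6 lines had a median of 0.466 (range -0.195 to 0.912) and was positive in 41 pairs, again over the same 6 pairs of libraries. No value for pairs of other genes is given beside it, so this count is not read as a trait of the members.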

How the data were processed

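Polyadenylated RNA of 12 libraries was analysed. The authors deposited raw read counts per gene without normalization, and 0 columns were left unused. The paper names TopHat and hg19, whereas the submitters' processing notes name STAR 2.7.3a, HTSeq 0.6.1p1 and GRCh38.p13, and the strand setting is not given in the sources used here. Ensembl IDs without version were paired with symbols for 58663 of 60669 genes, and the 2006 unpaired hold 0.132% of counts. Genes were filtered with filterByExpr (minimum count 10, minimum total 15), scaled by TMM and fitted by edgeR 4.0.16 (R 4.3.3, limma 3.58.1) quasi-likelihood with cell line as a term, or isogenic family for vehicle levels. Tests were two-sided, with Benjamini-Hochberg adjustment over all genes. Changes in a line used a prior count of 2. The spread between lines measured by these p-values includes no replicate cultures.

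Libraries were paired because both treatments were given to the same line, and deviations of the paired libraries from the group means correlated at 0.893 to 0.929. Named genes were the 10 members, the gene with the smallest p of each list and the 5 genes most like GNL3 with a mean of at least 10 CPM. MTG1, GNL1, LSG1, POLR1A, NOP2, EBNA1BP2, MDM2, RPL5, RPL11, RPL23 and PARP1 were named in addition, after their values were seen. Members and lists were chosen with earlier results of these data known. The fits were tested on simulated data. Alternatives were DESeq2 1.42.0, other scalings, no filter, no line term, each line left out and other prior counts. A correction for GC content and length (loess, span 0.5, 18488 genes, all 10 members) and the ratios between members were added after seeing the data. Plots used matplotlib 3.10.9.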

Additional observations from a re-analysis of the deposited data

How the results depend on the processing

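The unadjusted calls of GNL3L and NOP56 over 6 lines kept their direction and their side of the threshold with each line left out, DESeq2, DESeq2 size factors, library size and no filter. In edgeR fits without the replicate block both stayed negative but missed the threshold (unadjusted p = 0.276 and unadjusted p = 0.486). NOP56 also missed it when scaled to RPLP0 (-0.15, edgeR unadjusted p = 0.275), where GNL3L was -0.33 (unadjusted p = 0.0479) and NOP58 passed as higher (0.35, unadjusted p = 0.0301). RPLP0 scaling moved the median of all genes by 0.18 over 6 lines, 0.29 in sensitive and 0.081 in resistant lines, -0.20 for their difference and -0.41 for vehicle levels. Corrected for GC content and length, an alternative added after seeing the data, the mean changes of GNL3L and NOP56 were -0.57 and -0.33, each lower in 6 of 6 lines, and the mean of no member changed sign, although NOP58 turned to -0.015 in HeyA8 and NOLC1 to -0.011 in OV2008. Other prior counts reversed no change of at least 1.25-fold in a line. The cause of the shifts listed next was not tested. Those under RPLP0 scaling are to be read against the shift in the median of all genes given above. Scaled to RPLP0, the fitted log2 value changed sign, with values of 0.17 (GNL2), 0.12 (NPM1), 0.17 (NCL), 0.11 (FBL), 0.12 (DKC1) and 0.10 (NOLC1) over 6 lines, 0.11 (GNL2), 0.13 (NPM1), 0.17 (NCL), 0.24 (FBL), 0.27 (DKC1), 0.056 (NOP56) and 0.17 (NOLC1) in sensitive lines, 0.025 (NOLC1) in resistant lines, -0.0056 (GNL3), -0.17 (GNL3L), -0.0036 (NPM1), -0.067 (NOP58) and -0.15 (NOLC1) for the difference between resistant and sensitive lines, -0.28 (GNL3), -0.42 (GNL2), -0.023 (NPM1), -0.31 (NCL), -0.39 (DKC1) and -0.18 (NOP56) for vehicle levels. Scaled by library size, the fitted log2 value changed sign, with values of 0.010 (DKC1) in sensitive lines, -0.0032 (NPM1) in resistant lines, -0.033 (GNL3L) and -0.0097 (NOLC1) for the difference between resistant and sensitive lines. With DESeq2 size factors, the fitted log2 value changed sign, with values of -0.0051 (GNL2) for vehicle levels. By DESeq2, the fitted log2 value changed sign, with values of -0.0051 (GNL2) for vehicle levels. Without the filter, the fitted log2 value changed sign, with values of 0.012 (DKC1) in sensitive lines, -0.020 (GNL3L) for the difference between resistant and sensitive lines, -0.0029 (GNL2) for vehicle levels. Without the replicate block (no line or family term), the fitted log2 value changed sign, with values of 0.13 (DKC1) in sensitive lines, -0.047 (NCL) in resistant lines, -0.066 (GNL3L), -0.063 (NOP58) and -0.079 (NOLC1) for the difference between resistant and sensitive lines, -0.18 (DKC1), 0.10 (NOP58) and 0.030 (NOLC1) for vehicle levels. Among changes of at least 1.25-fold in single lines, RPLP0 scaling turned GNL2 (0.11) and DKC1 (0.064) in C13 and FBL (0.030) in OV2008. Counting changes of any size, it left 2 members lower in SK-OV-3, 2 in OV2008 and 6 in C13. Leaving out each line in turn, the range included a change of sign over 6 lines for GNL2 -0.12 to 0.064, NPM1 -0.19 to 0.053, NCL -0.12 to 0.087, FBL -0.22 to 0.035 and DKC1 -0.12 to 0.00045. Leaving out each line in turn, the range included a change of sign in sensitive lines for NPM1 -0.41 to 0.049, FBL -0.41 to 0.17, DKC1 -0.12 to 0.095, NOP58 -0.0024 to 0.18 and NOLC1 -0.18 to 0.021. Leaving out each line in turn, the range included a change of sign in resistant lines for GNL3 -0.34 to 0.18, GNL2 -0.022 to 0.37, NPM1 -0.22 to 0.37, NCL -0.12 to 0.39, FBL -0.24 to 0.16, DKC1 -0.24 to 0.019, NOP58 -0.082 to 0.44 and NOLC1 -0.21 to 0.039. Leaving out each line in turn, the range included a change of sign for the difference between resistant and sensitive lines for GNL3 -0.045 to 0.47, GNL3L -0.16 to 0.11, NPM1 -0.063 to 0.53, NCL -0.0011 to 0.51, FBL -0.27 to 0.31, DKC1 -0.23 to 0.030, NOP58 -0.18 to 0.34 and NOLC1 -0.090 to 0.15. Leaving out each family in turn, the range included a change of sign for vehicle levels for GNL3L -0.30 to 0.054, GNL2 -0.22 to 0.29, DKC1 -0.28 to 0.31, NOP58 -0.39 to 0.21 and NOLC1 -0.18 to 0.090.

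The number of genes with an unadjusted p under 0.05 was 2191 in sensitive lines and 1408 for vehicle levels when scaled to RPLP0, and 1058 for vehicle levels by DESeq2. Without the filter it was 1918 in sensitive lines, 501 for the difference and 1583 for vehicle levels. Without the replicate block it was 117 over 6 lines, 30 in sensitive lines, 23 in resistant lines, 6 for the difference and 104 for vehicle levels, with 0 members called over 6 lines, in sensitive and in resistant lines. With isogenic family as the replicate block it was 438 for the difference. At an adjusted p under 0.05 it was 0 over 6 lines. Leaving out each line, it ran from 808 to 2012 in sensitive lines, lowest without HeyA8, from 416 to 1376 in resistant lines, lowest without HeyA8-MDR, and from 187 to 540 for the difference, highest without C13. Members called ran from 0 to 1 in sensitive and from 0 to 2 in resistant lines, and RPLP0 scaling gave 0 in both. With 3 lines per group and 1 library per line and treatment, the standard errors of the members' log2 changes were 0.11 to 0.171 over 6 lines and 0.167 to 0.26 within a group.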
